A study of Mus musculus with 10 samples.

Results

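The genes described here make cholesterol and fatty acids or steer that synthesis. They are 39 named genes, found by symbol in the deposited count table of 16251 genes, and all 39 passed the filter on low counts. They fall into a sterol branch of 17 enzymes, a fatty acid branch of 11 genes and a set of 11 regulators, transport and efflux genes. Messenger RNA had been sequenced from mouse primary lymphatic endothelial cells (LECs), which line lymphatic vessels. In 5 libraries the cells were labelled Vegfr2 siRNA and had been transfected with 50 nM of siRNA duplexes, short double-stranded RNAs that lead to cleavage of a matching transcript, here Kdr, which encodes the growth factor receptor VEGFR2. In the other 5 libraries the cells were labelled control, and the labels of both groups give a time of 48 h. All 10 samples carry the treatment tag siRNA knockdown, and the labels do not say whether the control cells received another siRNA. No strain, sex or number of source animals is given. Since the labels do not say that replicates were separate cultures, the p-values rest on the spread among these libraries, and that spread may be technical.

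Cells build cholesterol from acetyl-CoA through mevalonate, farnesyl diphosphate, squalene and lanosterol, and build fatty acids from acetyl-CoA through malonyl-CoA, with elongation and desaturation steps afterwards. Many of these genes are known targets of the sterol regulatory element binding proteins (SREBPs). SREBP precursors are carried by Scap from the endoplasmic reticulum to the Golgi for cleavage when sterols are low, and are held back by the Insig proteins when sterols are high. The liver X receptors (LXRs) respond to oxidised sterols and turn on cholesterol efflux genes. Endothelial cells also take up fatty acids and burn them, and fatty acid oxidation is known to matter for lymphatic endothelium.

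The check of the knockdown and of the cell type came first. Kdr had 191, 196, 200.5, 173 and 167 CPM in the siRNA libraries, against 1328, 1320, 1280, 1259 and 1431 CPM in the control libraries, and no siRNA library reached the control range. The log2 fold change, siRNA over control, was -2.83 (adjusted p = 3.14e-11 by edgeR's quasi-likelihood test with Benjamini-Hochberg adjustment), and a two-sided exact permutation test gave p = 0.00794, the smallest that 5 against 5 libraries allow. CPM is counts per 1000000 counts of a library after TMM scaling, and libraries held 17946483 to 18239260 estimated counts. All 10 lymphatic endothelial markers were in the table, with a summed level of 12040 to 13080 CPM in siRNA libraries and 17870 to 19560 CPM in control libraries. Pdpn alone among them rose, with a log2 fold change of 0.81 (adjusted p = 3.31e-10 by the same edgeR test), and the others fell. Ccl21a was scarce, at 0.88 CPM in siRNA cells and 2.84 CPM in control cells on average. The 6 pan-endothelial markers other than Kdr itself summed to 4132 to 4302 CPM in siRNA libraries and 5046 to 5220 CPM in control libraries. Markers of cells that make much lipid were nearly absent: 3 of 9 adipocyte markers were in the table, summing to 0.493 to 0.768 CPM in siRNA libraries and 0.667 to 1.23 CPM in control libraries, and 3 of 6 hepatocyte and sebocyte markers summed to 0.164 CPM or less in every library. Of 8 macrophage markers 4 were in the table, at 30.1 to 40.5 CPM in siRNA libraries and 41.9 to 49.8 CPM in control libraries, nearly all of it Cd68. Fibroblast and mural markers (10 of 10 in the table) summed to 19.0 to 23.1 CPM in siRNA libraries and 32.9 to 39.3 CPM in control libraries. Thy1 was the highest of them, at 11.4 ± 1.34 CPM in siRNA cells and 23.8 ± 1.42 CPM in control cells (SD, n = 5 each). Of these 10 markers, 6 averaged under 1 CPM. Of 6 epithelial markers 4 were in the table, at 7.68 to 8.73 CPM in siRNA libraries and 1.22 to 2.46 CPM in control libraries, mostly Krt18. In bulk RNA, fewer cells of a type and less RNA per cell cannot be told apart.

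Transcripts of sterol and fatty acid synthesis were mostly lower in Vegfr2 siRNA cells, by modest amounts, while 6 of 11 regulators, transport and efflux genes did not pass the test. Of the 39 genes, 26 fell, 5 rose and 8 did not pass an adjusted p of 0.05. Across all 12161 tested genes, 71.3% were called, 36.1% higher and 35.2% lower, so a call in itself was common in this comparison. The share called among the 39 was 79.5%, with 66.7% lower and 12.8% higher. The median log2 fold change was -0.23 over the 39 genes and -0.0019 over all tested genes. In the sterol branch 14 of 17 genes fell and 1 rose, with a median log2 fold change of -0.32. In the fatty acid branch 9 of 11 fell and 2 rose, with a median of -0.27. Among regulators, transport and efflux genes 3 of 11 fell and 2 rose, with a median of -0.0006. The libraries of the groups did not overlap for 28 of the 39 genes, 25 of them lower and 3 higher, where 57.0% of all tested genes had no overlap. Tested with edgeR's glmTreat against a fold of 1.5, which 8.56% of all tested genes passed, 3 of the 39 passed, and these were Lss, Acss2 and Thrsp, all lower.

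**Figure D1:**
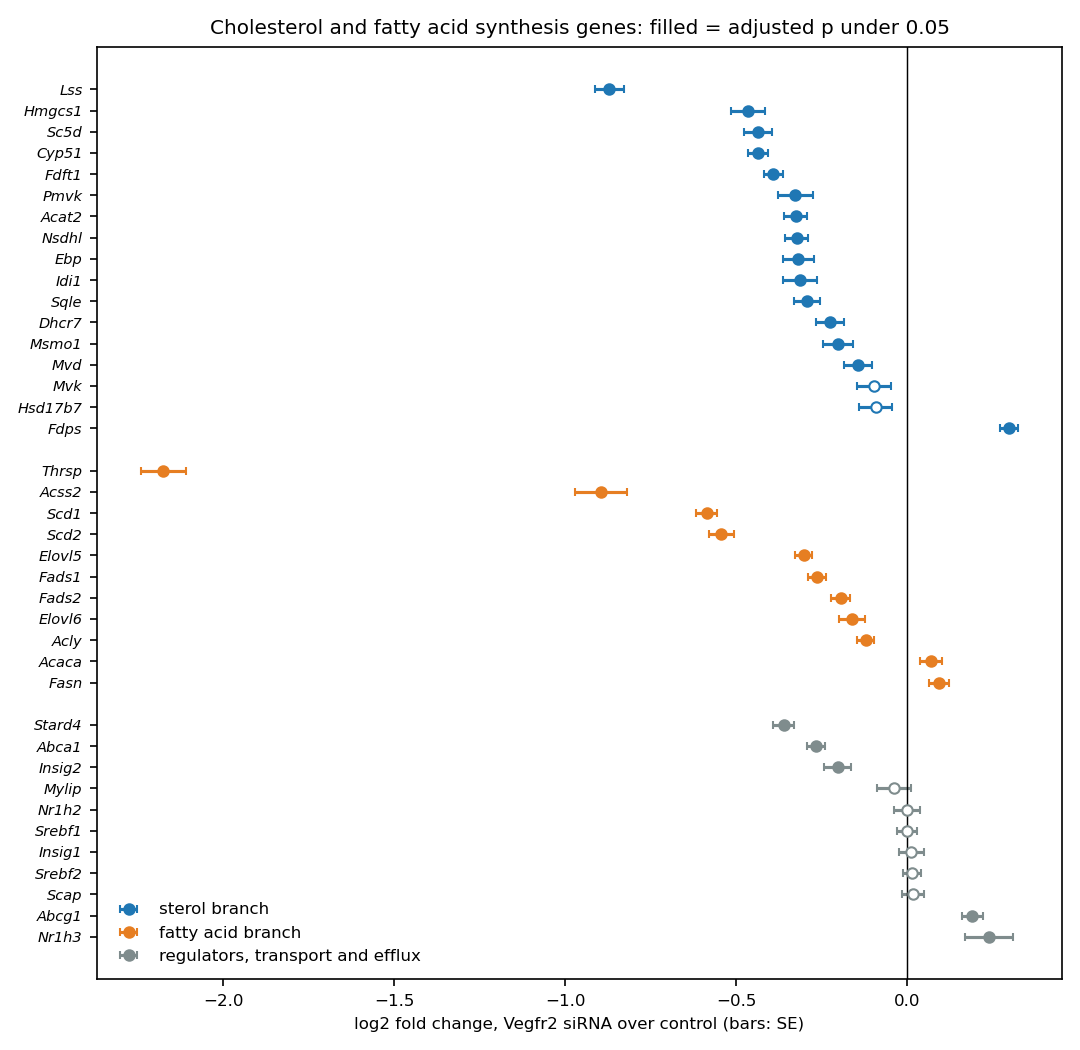
Log2 fold change, Vegfr2 siRNA over control, of the 39 genes in 3 groups, with bars for the standard error and filled points for an adjusted p under 0.05. Fold changes run from -2.17 for Thrsp to 0.30 for Fdps, and the points of Srebf1, Srebf2, Scap, Insig1, Nr1h2 and Mylip lie near 0.

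Levels were compared between genes per length of transcript. Scd2, a stearoyl-CoA desaturase that makes monounsaturated fatty acids, stood highest, at 178 ± 9.19 CPM per kb in siRNA cells and 260.1 ± 12.3 CPM per kb in control cells (SD, n = 5 each). The lowest levels per length were those of Acss2 in siRNA cells, at 2.99 CPM per kb, and of Nr1h3 in control cells, at 5.17 CPM per kb. Within the sterol branch, levels per length ran from 10.1 CPM per kb for Hsd17b7 to 151 for Fdps in siRNA cells, and from 10.7 for Hsd17b7 to 128 for Msmo1 in control cells. Fdps was thus at the top of the sterol branch in siRNA cells, at 151 ± 2.53 CPM per kb in siRNA cells and 123 ± 4.92 CPM per kb in control cells, and Msmo1, the methylsterol oxidase, was at 111 ± 5.26 CPM per kb in siRNA cells and 128 ± 7.97 CPM per kb in control cells (SD, n = 5 each). The control levels per length of Fdps, Msmo1, Hmgcs1 and Idi1 lay close together, at 123, 128, 121 and 121 CPM per kb. Among the regulators Insig1 stood highest per length, at 88.7 ± 3.38 CPM per kb in siRNA cells and 88 ± 5.41 CPM per kb in control cells (SD, n = 5 each).

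**Figure D2:**
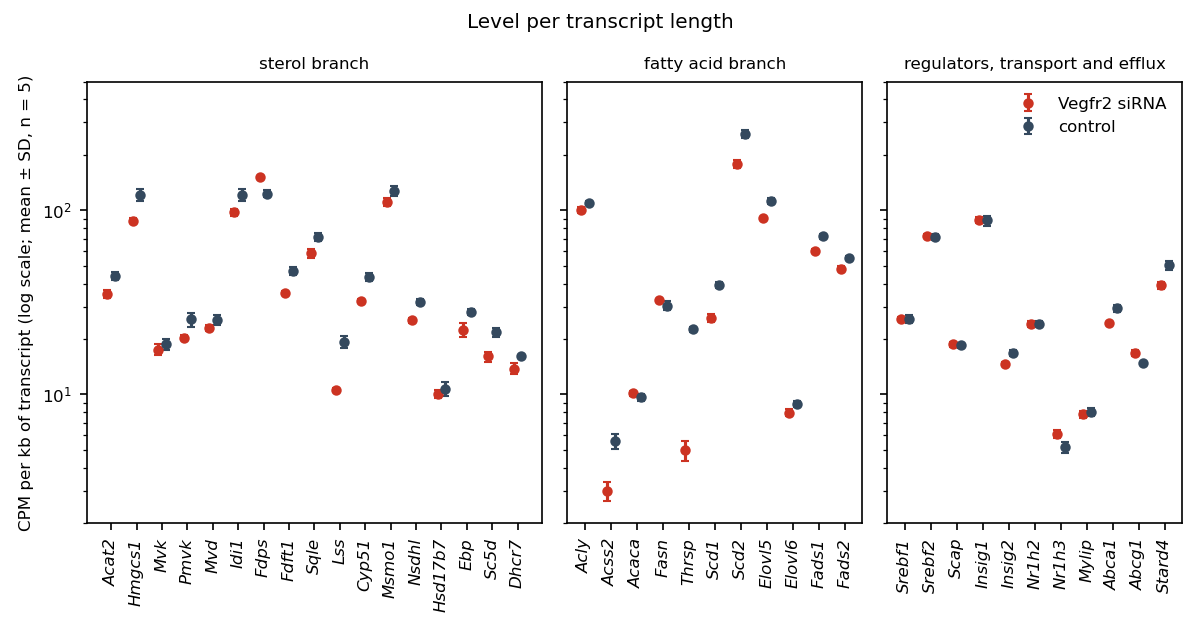
Mean level of each gene in CPM per kb of its longest coding transcript, on a log axis, with Vegfr2 siRNA left of control for each gene and bars for the SD of 5 libraries. Scd2 stands highest in both groups, at 178 CPM per kb in siRNA cells and 260.1 CPM per kb in control cells.

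Of the branch's 7 genes of the mevalonate part, 5 were lower (71.4%, against 35.2% of all tested genes) and Fdps, the last, was higher. Their median log2 fold change was -0.31 (coordinates are those of GRCm38.p6). The 7 genes do not cover every step of this part. Hmgcs1 (Entrez gene 208715, chromosome 13, 119690351 to 119708260) makes HMG-CoA, a precursor of mevalonate, and had 313, 313, 308, 290.1 and 298 CPM in the siRNA libraries, against 453, 433, 382, 392 and 442 CPM in the control libraries. Every siRNA library was below every control library, and the log2 fold change was -0.47 with a standard error of 0.0496 (adjusted p = 7.55e-06). Of its exon bases, 12.1% also belong to a gene of the opposite strand, and the strand setting of the counting is not given in the sources used here. Pmvk, phosphomevalonate kinase (Entrez gene 68603, chromosome 3, 89454541 to 89469014), had 25.1, 25, 23.9, 24.4 and 23.2 CPM in the siRNA libraries, against 29.5, 33.4, 26.6, 32.8 and 30.3 CPM in the control libraries. Its groups did not overlap either, and its log2 fold change was -0.33 with a standard error of 0.0511 (adjusted p = 3.32e-07). Acat2, the cytosolic thiolase that joins acetyl-CoA units, averaged 79.2 ± 3.8 CPM in siRNA cells and 99.3 ± 4.75 CPM in control cells (SD, n = 5 each), a log2 fold change of -0.33 at an adjusted p of 4.44e-11. Idi1, isopentenyl diphosphate isomerase, had a log2 fold change of -0.31 at an adjusted p of 0.000229, and Mvd, the decarboxylase just before it, -0.14 at an adjusted p of 0.00232, with libraries that overlapped. Reads of Acat2 and Idi1 were divided between genes in all 10 libraries, so their levels are uncertain. Mvk, mevalonate kinase, did not pass the test, with 29.1 ± 2.04 CPM in siRNA cells and 31.1 ± 2.16 CPM in control cells (SD, n = 5 each) and a log2 fold change of -0.10 at an adjusted p of 0.081.

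Fdps was the sole sterol branch gene that rose. It encodes farnesyl diphosphate synthase (Entrez gene 110196, chromosome 3, 89093588 to 89101967), whose product feeds sterols, protein prenylation, dolichol and ubiquinone. Its values, given for all libraries because its direction stood apart once seen, were 211, 211, 212, 204 and 207 CPM in the siRNA libraries, against 170.5, 182, 166, 166 and 167 CPM in the control libraries. The groups did not overlap, and the log2 fold change was 0.30 with a standard error of 0.0265 (adjusted p = 2.2e-13). Of its exon bases, 26.7% are shared with the annotated gene Gm43738 on the same strand, so part of its count may belong there.

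From squalene onward 9 of 10 enzymes were lower, where 35.2% of all tested genes were lower. The median log2 fold change of the 10 was -0.32, and values ran from -0.87 for Lss to -0.09 for Hsd17b7, which did not pass the test. Lss, lanosterol synthase (Entrez gene 16987, chromosome 10, 76531565 to 76557139), closes squalene epoxide into the sterol rings and had the largest fall of the branch. It had 50.0, 51.2, 47.8, 48.3 and 49.3 CPM in the siRNA libraries, against 92.4, 96.9, 83.4, 82.5 and 96 CPM in the control libraries. The siRNA libraries lay within a narrow range far below the control libraries, and the log2 fold change was -0.87 with a standard error of 0.0418 (adjusted p = 5.33e-17). Fdft1, squalene synthase (Entrez gene 14137, chromosome 14, 63145150 to 63181687), which commits farnesyl units to sterols, had 132, 136, 132, 129.9 and 129.5 CPM in the siRNA libraries, against 182, 178, 162, 169 and 174 CPM in the control libraries. Its libraries did not overlap and its log2 fold change was -0.39 with a standard error of 0.0284 (adjusted p = 3.62e-16), but its reads were divided between genes in all 10 libraries and 18.3% of its exon bases are shared with Ctsb on the opposite strand. Cyp51, the lanosterol demethylase (Entrez gene 13121, chromosome 5, 4080674 to 4104697), had 125, 131, 126, 123 and 126 CPM in the siRNA libraries, against 179, 173, 159, 165 and 177 CPM in the control libraries. Its siRNA range again lay wholly below its control range, with a log2 fold change of -0.44 with a standard error of 0.0292 (adjusted p = 3.04e-17). Sc5d, a sterol desaturase late in the pathway (Entrez gene 235293, chromosome 9, 42251592 to 42264300), had 80.4, 82.7, 77.2, 70.4 and 74.2 CPM in the siRNA libraries, against 110.3, 107, 96.5, 101 and 108 CPM in the control libraries. No siRNA library reached the lowest control library, and the log2 fold change was -0.44 with a standard error of 0.0406 (adjusted p = 1.11e-09).

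The remaining late enzymes fell by less. The log2 fold change was -0.32 at an adjusted p of 3.63e-11 for Nsdhl, a sterol dehydrogenase that removes methyl groups, and -0.32 at an adjusted p of 7.54e-08 for Ebp, a sterol isomerase. Sqle, squalene epoxidase and another control point of the pathway, had -0.29 at an adjusted p of 9.65e-07, Dhcr7, which completes cholesterol from its dehydro precursor, -0.23 at an adjusted p of 6.05e-06, and Msmo1 -0.20 at an adjusted p of 0.00102. The groups did not overlap for any of these 5 genes. Hsd17b7, a ketosteroid reductase of the same demethylation complex, did not pass, with 46.4 ± 2.16 CPM in siRNA cells and 49.4 ± 4.29 CPM in control cells (SD, n = 5 each) and a log2 fold change of -0.09 at an adjusted p of 0.086.

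**Figure D3:**
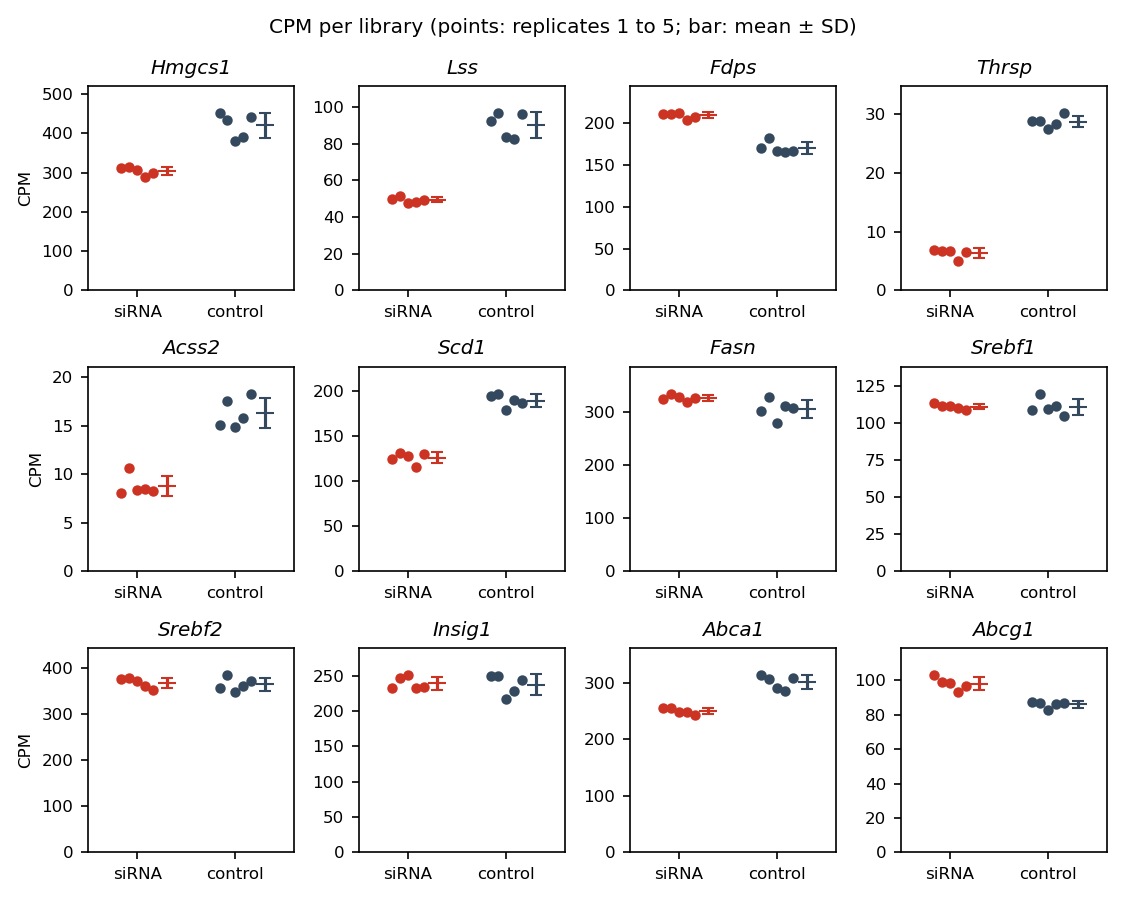
CPM of 12 of the genes in each library, Vegfr2 siRNA left of control, with the mean and SD beside the points and every axis starting at 0. Lss and Thrsp are separated downward, Fdps upward, and Srebf1, Srebf2 and Insig1 overlap.

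The largest falls of the fatty acid branch were those of Thrsp, Acss2, Scd1 and Scd2. Thrsp (Entrez gene 21835, chromosome 7, 97412933 to 97417550) encodes a small nuclear protein known from liver and fat as an inducible partner of lipogenesis. It had 6.9, 6.69, 6.7, 4.94 and 6.6 CPM in the siRNA libraries, against 28.9, 28.9, 27.6, 28.3 and 30.3 CPM in the control libraries. Its highest siRNA library was far below its lowest control library, and the log2 fold change of -2.17 with a standard error of 0.0658 (adjusted p = 2.52e-29) was the largest of the 39 genes. Acss2 (Entrez gene 60525, chromosome 2, 155518043 to 155562743), which makes acetyl-CoA from acetate, was scarce, with 8.1, 10.6, 8.34, 8.45 and 8.31 CPM in the siRNA libraries, against 15.1, 17.6, 14.9, 15.7 and 18.3 CPM in the control libraries. Its groups did not overlap and its log2 fold change was -0.90 with a standard error of 0.0751 (adjusted p = 6.43e-14), with 9.12% of its exon bases shared with genes on the opposite strand.

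The stearoyl-CoA desaturases place the double bond of oleate and palmitoleate. Scd1 (Entrez gene 20249, chromosome 19, 44394450 to 44407709) had 124, 132, 128, 116 and 130.1 CPM in the siRNA libraries, against 194, 197, 178, 189 and 187 CPM in the control libraries. Scd2 (Entrez gene 20250, chromosome 19, 44293676 to 44306864) had 957, 1038, 1011, 916 and 945 CPM in the siRNA libraries, against 1463, 1481, 1344, 1347 and 1459 CPM in the control libraries. Neither gene's groups overlapped, and the log2 fold changes were -0.59 with a standard error of 0.0307 (adjusted p = 8.43e-19) for Scd1 and -0.54 with a standard error of 0.0371 (adjusted p = 1.59e-09) for Scd2. Elovl5, an elongase of polyunsaturated fatty acids (Entrez gene 68801, chromosome 9, 77917365 to 77984519), had 255, 255, 255, 252 and 245 CPM in the siRNA libraries, against 324, 313, 305, 297 and 319 CPM in the control libraries. Fads1, a front-end desaturase of the same polyunsaturated route (Entrez gene 76267, chromosome 19, 10182877 to 10196874), had 209, 214, 214, 199 and 206 CPM in the siRNA libraries, against 252, 259, 238, 248 and 255 CPM in the control libraries. Each fell without overlap, with log2 fold changes of -0.30 with a standard error of 0.0251 (adjusted p = 2.43e-14) for Elovl5 and -0.27 with a standard error of 0.0261 (adjusted p = 3.72e-12) for Fads1. Fads2, the desaturase that opens that route, had a log2 fold change of -0.20 at an adjusted p of 1.51e-08. Elovl6, an elongase of saturated chains, had -0.16 at an adjusted p of 0.000207, and Acly, which cleaves citrate to cytosolic acetyl-CoA, -0.12 at an adjusted p of 3.59e-05, all 3 without overlap.

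The central enzymes of the branch went the other way, by little. Fasn, fatty acid synthase (Entrez gene 14104, chromosome 11, 120805958 to 120825166), had 323, 334, 327, 318 and 325 CPM in the siRNA libraries, against 300.5, 328, 279, 311 and 308 CPM in the control libraries. The ranges overlapped, and the log2 fold change was 0.09 with a standard error of 0.029 (adjusted p = 0.00528). Acaca, the acetyl-CoA carboxylase that makes malonyl-CoA, averaged 96.3 ± 2.57 CPM in siRNA cells and 91.8 ± 4.26 CPM in control cells (SD, n = 5 each), with overlapping libraries and a log2 fold change of 0.07 at an adjusted p of 0.045. The Acaca call was lost under most other settings, with an adjusted p of up to 0.193 in tests of any change, and against a fold of 1.5.

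Of the 5 genes of SREBP, its escort and its retention proteins, Insig2 fell and the other 4 did not pass the test. Srebf1 (Entrez gene 20787, chromosome 11, 60199084 to 60224186), which encodes the SREBP form best known for fatty acid genes, had 114, 112, 111, 109.9 and 109 CPM in the siRNA libraries, against 109, 119.8, 109.8, 112 and 105 CPM in the control libraries. Srebf2 (Entrez gene 20788, chromosome 15, 82147269 to 82205379), the form best known for cholesterol genes, had 377, 377, 372, 361 and 352 CPM in the siRNA libraries, against 357, 386, 348, 361 and 372 CPM in the control libraries. In both genes the siRNA range lay inside the control range, and the log2 fold changes were -0.0006 with a standard error of 0.03 (adjusted p = 0.988) for Srebf1 and 0.01 with a standard error of 0.0263 (adjusted p = 0.67) for Srebf2. Scap, the escort protein (Entrez gene 235623, chromosome 9, 110333288 to 110384949), had 83.1, 78.4, 76.5, 80.5 and 76.8 CPM in the siRNA libraries, against 78.5, 79.6, 77.6, 81.1 and 74.1 CPM in the control libraries. Insig1, the sterol-regulated retention protein (Entrez gene 231070, chromosome 5, 28071412 to 28078662) and itself a known SREBP target, had 232, 247, 251, 232 and 233 CPM in the siRNA libraries, against 250.1, 249, 217, 228 and 243 CPM in the control libraries. Their groups overlapped too, with log2 fold changes of 0.02 with a standard error of 0.032 (adjusted p = 0.674) for Scap and 0.01 with a standard error of 0.0369 (adjusted p = 0.796) for Insig1, and 13.2% of the exon bases of Scap also belong to a gene of the opposite strand. Insig2, the other retention protein (Entrez gene 72999, chromosome 1, 121304353 to 121332662), had 38.4, 38.1, 39.7, 39.9 and 40.2 CPM in the siRNA libraries, against 45.1, 45.3, 48.1, 43.4 and 44.2 CPM in the control libraries. It fell without overlap, with a log2 fold change of -0.20 with a standard error of 0.0386 (adjusted p = 9.99e-06). The standard errors of 0.0263 to 0.0386 on these 5 log2 fold changes rest on the spread among libraries, which may be technical. Transcript levels do not measure SREBP cleavage.

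LXR genes and cholesterol efflux genes did not share a direction. Nr1h3, which encodes LXR alpha (Entrez gene 22259, chromosome 2, 91184061 to 91202829), was scarce, with 12.3, 12.7, 11.8, 11.1 and 11.5 CPM in the siRNA libraries, against 10.3, 10.6, 9.95, 8.89 and 10.8 CPM in the control libraries. It rose without overlap, with a log2 fold change of 0.24 with a standard error of 0.0703 (adjusted p = 0.00271), whereas Nr1h2, which encodes LXR beta, averaged 48.2 ± 1.63 CPM in siRNA cells and 48.2 ± 2.05 CPM in control cells (SD, n = 5 each), a log2 fold change of -0.0023 at an adjusted p of 0.96. Abca1, the exporter of cholesterol to lipid-poor apolipoprotein A-I (Entrez gene 11303, chromosome 4, 53030789 to 53159988), had 255, 256, 249, 248 and 243 CPM in the siRNA libraries, against 314, 306, 291, 286 and 309 CPM in the control libraries. Abcg1, the exporter to high density lipoprotein (Entrez gene 11307, chromosome 17, 31057694 to 31117984), had 103, 98.8, 98.2, 93.3 and 96.9 CPM in the siRNA libraries, against 87.4, 86.8, 82.8, 86.2 and 86.9 CPM in the control libraries. Abca1 fell and Abcg1 rose, both without overlap, although both are known LXR targets, with log2 fold changes of -0.27 with a standard error of 0.0261 (adjusted p = 2.93e-12) for Abca1 and 0.19 with a standard error of 0.0303 (adjusted p = 4.67e-07) for Abcg1. Mylip, an LXR-induced ubiquitin ligase that limits lipoprotein uptake, did not pass, with 23.9 ± 1.06 CPM in siRNA cells and 24.5 ± 1.19 CPM in control cells (SD, n = 5 each) and a log2 fold change of -0.04 at an adjusted p of 0.476. Stard4, a soluble carrier of sterols between membranes and a known SREBP target (Entrez gene 170459, chromosome 18, 33199138 to 33213862), had 200.5, 210.2, 201, 194 and 189.9 CPM in the siRNA libraries, against 268, 262, 242, 242 and 267 CPM in the control libraries. Its groups did not overlap, and its log2 fold change of -0.36 with a standard error of 0.0312 (adjusted p = 1.67e-11) was near those of the sterol enzymes.

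The 39 genes also varied together within groups. Control replicates 3 and 4 were the lowest pair of control libraries for 27 of the 39 genes (69.2%), compared with 12.2% of all tested genes. This held for 13 of 17 sterol branch genes, 8 of 11 fatty acid branch genes and 6 of 11 regulators, transport and efflux genes. Replicates 4 and 5 were the lowest pair of siRNA libraries for 21 of the 39 genes (53.8%), compared with 12.3% of all tested genes. These pairs were noticed after the values were seen, and they are given as a description with no test. Hmgcs1 shows the pattern: control replicates 3 and 4 were at 382 and 392 CPM and the other control libraries at 433 to 453 CPM.

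**Figure D4:**
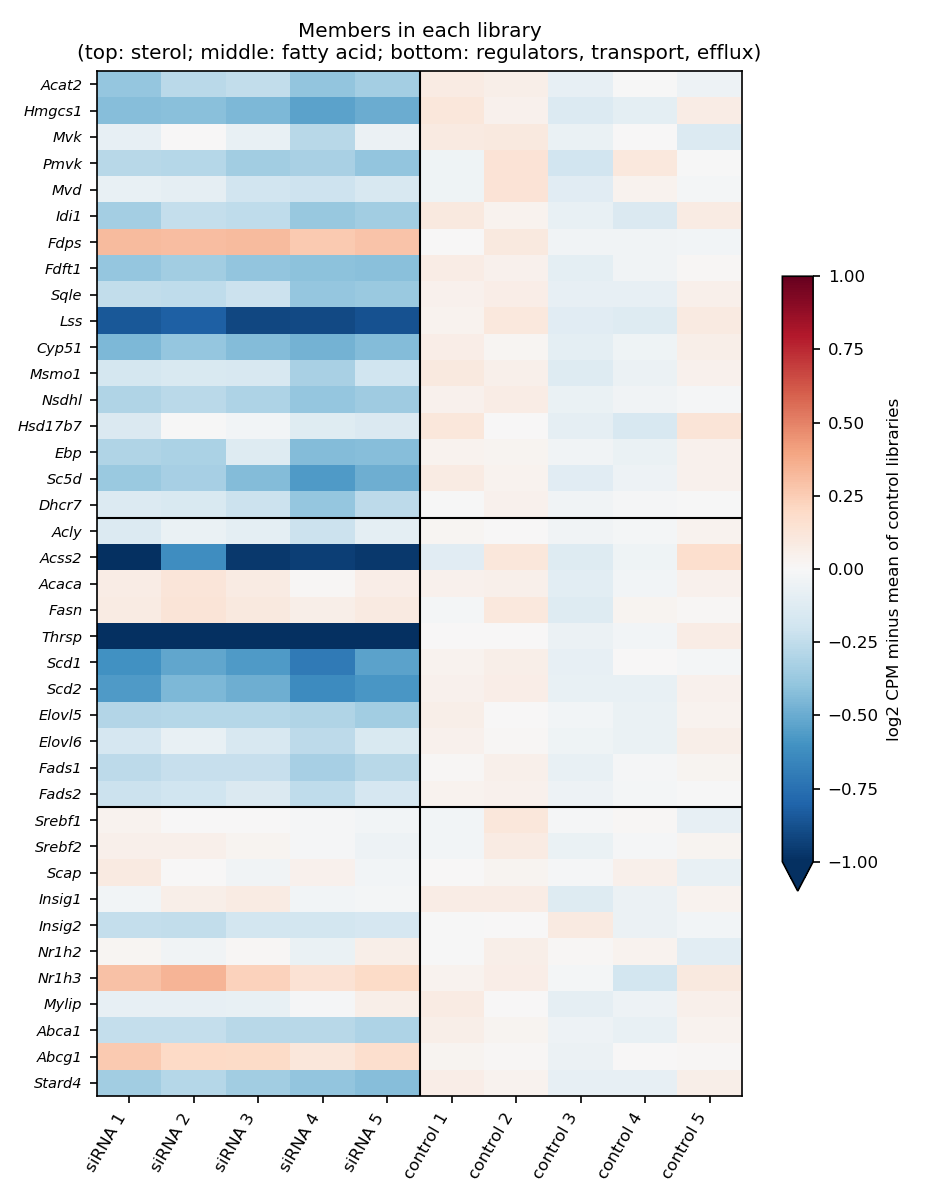
Log2 CPM of each gene in each library minus the mean of the control libraries, with the 5 Vegfr2 siRNA libraries left of the 5 control libraries. Most sterol and fatty acid rows are blue (lower) across all siRNA libraries, Fdps is red (higher), and control replicates 3 and 4 are paler or bluer than other control libraries in many rows.

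Promoter sequence was examined because many of the genes are known SREBP targets. RefSeq windows (GRCm38.p6) from 250 bases before to 50 bases after the annotated start were found for 31 of the 39 genes, and the earliest listed window of each gene was searched on both strands. No window was found for Fdps, Fdft1, Sqle, Scd1, Scd2, Fads1, Abcg1 and Stard4, so these genes were not searched. The window of Acaca (chr11:84195188-84195487, plus strand) lies inside the gene, which begins at 84129635. A classical sterol response element, TCACNCCAC, was present in 1 of 31 windows (3.23%), that of Hmgcs1, and in 1.00% of the windows of 9763 tested genes. The shorter core CACNCCAC, which lies within that motif and was added after the windows were seen, was present in 3 of 31 (9.68%), those of Hmgcs1, Acat2 and Insig1, and in 5.97% of tested genes. The windows of these 3 genes are shown with those of Lss and Thrsp, which were added after the values were seen because their falls were the largest of their branches. Capitals mark the sterol response element or its core and CCAAT boxes (CCAAT, or ATTGG where the box lies on the other strand). In Hmgcs1 (chr13:119690101-119690400, plus strand) the element begins at -137 from the start. Acat2 (chr17:12960676-12960975, minus strand) holds 2 cores and no CCAAT box. Insig1 (chr5:28071162-28071461, plus strand) holds a core at -9. Lss (chr10:76531355-76531654, plus strand) and Thrsp (chr7:97417501-97417800, minus strand) hold CCAAT boxes and neither form of the element.
Hmgcs1 promoter: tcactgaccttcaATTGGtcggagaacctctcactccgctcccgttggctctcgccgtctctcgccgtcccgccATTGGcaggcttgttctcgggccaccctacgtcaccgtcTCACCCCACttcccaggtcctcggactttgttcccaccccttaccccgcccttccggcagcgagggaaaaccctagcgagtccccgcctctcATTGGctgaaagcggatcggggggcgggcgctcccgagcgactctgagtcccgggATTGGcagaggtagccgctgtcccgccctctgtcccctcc
Acat2 promoter: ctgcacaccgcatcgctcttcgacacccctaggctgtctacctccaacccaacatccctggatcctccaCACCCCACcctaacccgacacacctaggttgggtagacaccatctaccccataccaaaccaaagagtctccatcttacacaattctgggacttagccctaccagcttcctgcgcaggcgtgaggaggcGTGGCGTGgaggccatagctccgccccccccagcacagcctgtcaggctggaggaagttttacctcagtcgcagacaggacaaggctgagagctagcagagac
Insig1 promoter: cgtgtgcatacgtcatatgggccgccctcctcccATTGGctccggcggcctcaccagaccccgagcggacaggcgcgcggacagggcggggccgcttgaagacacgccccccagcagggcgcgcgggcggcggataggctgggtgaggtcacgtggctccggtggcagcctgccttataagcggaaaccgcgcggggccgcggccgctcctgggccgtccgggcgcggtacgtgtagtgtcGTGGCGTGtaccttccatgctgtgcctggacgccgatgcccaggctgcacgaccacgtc
Lss promoter: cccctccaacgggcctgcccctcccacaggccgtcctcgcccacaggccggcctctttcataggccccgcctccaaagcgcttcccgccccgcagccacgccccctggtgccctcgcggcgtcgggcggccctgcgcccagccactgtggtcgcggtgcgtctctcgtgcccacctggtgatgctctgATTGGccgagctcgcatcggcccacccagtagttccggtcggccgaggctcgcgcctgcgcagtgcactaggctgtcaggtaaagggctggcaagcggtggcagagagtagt
Thrsp promoter: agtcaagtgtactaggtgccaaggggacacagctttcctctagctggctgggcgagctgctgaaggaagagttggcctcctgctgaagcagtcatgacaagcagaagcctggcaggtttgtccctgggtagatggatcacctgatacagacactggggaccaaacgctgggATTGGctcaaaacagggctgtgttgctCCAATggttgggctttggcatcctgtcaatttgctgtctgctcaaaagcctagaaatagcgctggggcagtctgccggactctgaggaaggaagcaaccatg

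Of the genes with a core, Hmgcs1 and Acat2 fell and Insig1 did not pass the test. The CCAAT box, to which NF-Y binds beside SREBP at known targets, was in 22 of 31 windows (71.0%) and in 39.7% of tested genes. By group it was in 12 of 14 windows of the sterol branch (85.7%), 5 of 8 of the fatty acid branch (62.5%) and 5 of 9 of the regulators, transport and efflux genes (55.6%). The GC box GGGCGG, the site of Sp1, was in 21 of 31 windows (67.7%), near the 65.6% of tested genes. By group it was in 13 of 14 windows of the sterol branch (92.9%) and 3 of 8 of the fatty acid branch (37.5%). Among regulators, transport and efflux genes it was in 5 of 9 (55.6%). These matches describe letters in a single window per gene and do not show binding.

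Some of the 39 genes carry a short 3' UTR word that moved with the siRNA comparison across the transcriptome. The word GTAAAGA was picked on these same data in an earlier analysis as a candidate match to the siRNA, whose sequence is not given in the sources used here, so its values are a description. Of all tested genes with an annotated 3' UTR, 1519 carried it (12.9%), with a median log2 fold change of -0.13 and 51.4% called lower. The 10234 genes without it had a median of 0.02, with 32.9% called lower. Among the 39 genes 8 carried it (20.5%), namely Lss, Cyp51, Hsd17b7, Scd1, Scd2, Elovl6, Insig1 and Stard4. Their median log2 fold change was -0.40 and 6 of them fell. The 31 genes without the word had a median of -0.20, with 20 lower and 5 higher. In the sterol branch the medians were -0.44 with the word (3 genes) and -0.32 without it (14 genes), and in the fatty acid branch -0.54 (3 genes) and -0.23 (8 genes). Fdft1, Hmgcs1, Sc5d, Acss2 and Thrsp fell without carrying it. What part the word has in the falls of its carriers was not tested. The sites of the 4 carriers with the largest falls are shown with 10 bases on each side, from GENCODE M21 transcripts (GRCm38), with the word in capitals. They lie on chromosome 10 for Lss, chromosome 5 for Cyp51 and chromosome 19 for Scd1 and Scd2.
Lss 3' UTR site: cctgggcgtaGTAAAGAacagcggctg
Cyp51 3' UTR site: acttctgtgcGTAAAGAtatgaaagga
Scd1 3' UTR site: tgatttgtaaGTAAAGAtggaagagag
Scd2 3' UTR site: tttccaggcaGTAAAGAtgtgtggtcc

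Genes that complete the sterol route but are outside the 39 moved in mixed directions. Of 14 tested genes of other sterol and isoprenoid synthesis, 9 rose (64.3%) and 4 fell (28.6%), with a median log2 fold change of 0.20. Across all tested genes 36.1% rose and 35.2% fell. Nus1, of dolichol synthesis, averaged 287 ± 4.67 CPM in siRNA cells and 206 ± 6.76 CPM in control cells (SD, n = 5 each), a log2 fold change of 0.48 at an adjusted p of 5.12e-21. Pdss2, of ubiquinone synthesis, averaged 9.41 ± 0.929 CPM in siRNA cells and 6.16 ± 0.472 CPM in control cells (SD, n = 5 each), a log2 fold change of 0.61 at an adjusted p of 2.39e-08.

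Sterol uptake, trafficking and storage gave 10 genes higher (52.6%) and 7 lower (36.8%) of 19 tested, with a median log2 fold change of 0.09. The share lower was near the 35.2% of all tested genes, of which 36.1% were higher. Npc1, which exports cholesterol from lysosomes, averaged 148 ± 3.18 CPM in siRNA cells and 102 ± 2.83 CPM in control cells (SD, n = 5 each), a log2 fold change of 0.54 at an adjusted p of 2.2e-21. The lipoprotein receptor gene Vldlr had 0.20 at an adjusted p of 1.83e-10, the cholesteryl ester hydrolase gene Nceh1 0.36 at an adjusted p of 2.59e-11, the transporter gene Abca7 -0.47 at an adjusted p of 3.98e-14 and the sterol transfer gene Gramd1a -0.33 at an adjusted p of 8.81e-13. Of 15 tested genes of SREBP processing and sterol-linked degradation, 9 rose (60.0%) and 4 fell (26.7%), with a median of 0.14. Erlin2, which takes part in protein degradation at the endoplasmic reticulum, averaged 112 ± 3.56 CPM in siRNA cells and 76.6 ± 1.01 CPM in control cells (SD, n = 5 each), a log2 fold change of 0.55 at an adjusted p of 1.41e-20. Mbtps1, the protease that makes the initial cut in SREBP, had 0.26 at an adjusted p of 2.48e-12, Faf2 0.22 at an adjusted p of 1.72e-08 and the conjugating enzyme gene Ube2g2 -0.24 at an adjusted p of 2.94e-10, Faf2 and Ube2g2 both serving the same kind of degradation.

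Other genes of fatty acid synthesis leaned lower, with 11 lower (52.4%) and 4 higher (19.0%) of 21 tested and a median log2 fold change of -0.14. Among all tested genes 35.2% were lower and 36.1% higher. Acsl4, which activates polyunsaturated fatty acids, averaged 84 ± 3.94 CPM in siRNA cells and 131 ± 4.35 CPM in control cells (SD, n = 5 each), a log2 fold change of -0.64 at an adjusted p of 4.68e-22. Me1, malic enzyme and a source of NADPH, had -0.47 at an adjusted p of 1.29e-17, the elongation gene Hacd4 -1.56 at an adjusted p of 1.07e-17, Fads3 -0.59 at an adjusted p of 2.14e-12, and Acacb, the acetyl-CoA carboxylase of mitochondria, -1.25 at an adjusted p of 7.89e-17. Glycerolipid synthesis and lipid droplet genes were divided, with 8 higher (36.4%) and 6 lower (27.3%) of 22 tested and a median of 0.02. Their share higher was near that of all tested genes. Agpat3, an acyltransferase, had a log2 fold change of -0.65 at an adjusted p of 5.89e-24 and Lpin1, a phosphatidate phosphatase, -0.50 at an adjusted p of 5.92e-12, whereas Hilpda, a droplet protein, had 0.72 at an adjusted p of 1.01e-13, Agpat4 0.52 at an adjusted p of 1.68e-13 and Gpat4 0.32 at an adjusted p of 1.04e-13.

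Fatty acid uptake and oxidation was the list with the lowest median among the other 6, at -0.38. Of 28 tested genes 20 were lower (71.4%) and 3 higher (10.7%), against 35.2% and 36.1% of all tested genes. Acaa2, the thiolase that ends each oxidation cycle, averaged 18.1 ± 0.95 CPM in siRNA cells and 34.1 ± 1.77 CPM in control cells (SD, n = 5 each), a log2 fold change of -0.91 at an adjusted p of 1.76e-20. Hadh, the dehydrogenase before it, had -0.70 at an adjusted p of 3.63e-17, the fatty acid carrier gene Fabp4 -0.65 at an adjusted p of 5.23e-18, and Gpihbp1, which anchors lipoprotein lipase on endothelium, -1.10 at an adjusted p of 4.01e-20. Angptl4, an inhibitor of lipoprotein lipase, averaged 4.41 ± 0.816 CPM in siRNA cells and 0.512 ± 0.206 CPM in control cells (SD, n = 5 each) and rose, with a log2 fold change of 3.09 at an adjusted p of 9.49e-18. Chosen after the values were seen, Cpt1a, the entry step of mitochondrial oxidation, had -0.80 at an adjusted p of 1.29e-05, and Pparg, a lipid-sensing nuclear receptor, -0.62 at an adjusted p of 1.65e-13. In the other direction, the carrier gene Fabp5 had 0.87 at an adjusted p of 1.1e-09 and the oxidation gene Acads 0.58 at an adjusted p of 3.84e-11.

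**Figure D5:**
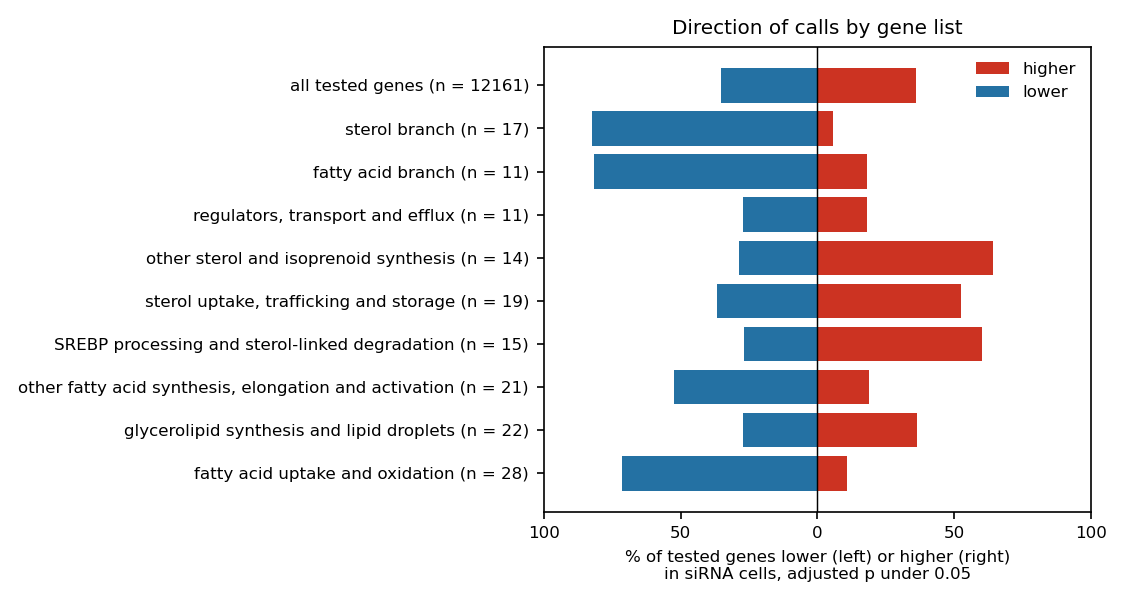
Share of tested genes called lower (bars to the left) or higher (bars to the right) in Vegfr2 siRNA cells relative to control cells, in percent, for all tested genes and for 9 gene lists. The sterol branch reaches 82.4% lower and the fatty acid branch 81.8% lower, against 35.2% for all tested genes.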

How the data were processed

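The authors deposited 1 table of expected counts per gene and library, not normalized. HISAT2 2.2.1, Bowtie2 2.4.5, RSEM 1.3.1 and GRCm38.p6 are listed by the submitters' processing notes. What each did, the annotation, the strand setting and any filter on genes: not given in the sources used here. Between 10.5% and 11.3% of values in a library were fractional. Groups came from the labels (5 Vegfr2 siRNA, 5 control), and p-values apply to these libraries. Library totals were 17946483 to 18239260. Counting noise is part of the spread between libraries given for each gene. No pair of libraries was a repeat (chi-square per degree of freedom at least 1.50).

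Counts were rounded and tested in R 4.3.3 with edgeR 4.0.16 (TMM, filterByExpr at 10 counts, the quasi-likelihood F test with robust dispersion and group alone, Benjamini-Hochberg adjustment over 12161 genes, threshold 0.05; 4090 genes were under the filter). CPM uses TMM-scaled library sizes. The standard error is the absolute log2 fold change over the square root of F. The fit was tested on simulated data. Alternatives were DESeq2 1.42.0, limma-voom 3.58.1, RLE factors, upper-quartile factors, a replicate block, no filter on counts, a filter on a mean of 5 CPM, glmTreat at a fold of 1.5, each library left out, and leaving out carriers of a 3' UTR word.

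Members, lists and alternatives were chosen with earlier results of these data known. All 39 genes are named. Values per library are given for up to 6 called genes of each group by absolute log2 fold change and for 7 fixed genes, and up to 5 genes by adjusted p come from each other list. Some genes that this rule would name are not reported here. Coordinates and promoters are RefSeq's (GRCm38.p6; all 39 gene IDs matched). Exons and 3' UTRs are from GENCODE M21.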

Additional observations from a re-analysis of the deposited data

Results flagged for a closer look

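In 5 of 78 groups of 5 libraries (39 genes in each of 2 conditions), 1 library lay far from the other 4 by Dixon's test, which flags about 1 group in 20 by itself. Msmo1 was at 208.5 CPM in siRNA replicate 4, below the other siRNA libraries. Thrsp was at 4.94 CPM in siRNA replicate 4, its lowest value. Elovl5 was at 245.0 CPM in siRNA replicate 5, its lowest siRNA library. Acss2 was at 10.6 CPM in siRNA replicate 2, its highest siRNA library and still below all control libraries. Abcg1 was at 82.8 CPM in control replicate 3, its lowest library. Why these libraries stood apart was not tested.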

How the results depend on the processing

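The call of Acaca was the least stable: genes of the fatty acid branch called higher numbered 1 instead of 2 with RLE factors, upper-quartile factors, DESeq2, limma-voom, a mean of at least 5 CPM and the replicate block, and 1 to 2 with a library left out (1 without control replicates 3 or 4, or siRNA replicates 1, 2, 3 or 5). Tested with glmTreat against a fold of 1.5, 447 of all genes were higher and 594 lower, 0 of the 39 genes were higher and 3 lower. By group that was 0 higher and 1 lower in the sterol branch, 0 and 2 in the fatty acid branch, and 0 and 0 among regulators, transport and efflux genes. The fatty acid branch median was -0.23 without carriers of the 3' UTR word, and the median of the regulators, transport and efflux genes ran from -0.0181 to 0.0245 (highest without control replicate 2) with a library left out. Signs turned for uncalled genes near 0. Srebf1 was 0.0006 with limma-voom, 0.0060 with no filter and 0.0002 with the replicate block, and -0.0181 to 0.0306 with a library left out. Upper-quartile factors gave -0.0033 for Srebf2, -0.0006 for Scap and -0.0049 for Insig1. Nr1h2 was 0.0042 with no filter. With a library left out these ran from -0.0016 to 0.0365 for Srebf2, -0.0025 to 0.0316 for Scap, -0.0177 to 0.0327 for Insig1 and -0.0254 to 0.0153 for Nr1h2. Mvk and Hsd17b7 passed under upper-quartile factors (adjusted p = 0.0421 and 0.0447). Mvk also passed without control replicate 5 (adjusted p = 0.0215) or siRNA replicate 2 (0.038), and Hsd17b7 without control replicate 3 (0.0376), control replicate 4 (0.00978) or siRNA replicate 2 (0.0454). The cause of these changes was not tested. With a library left out, 26 to 28 of the 39 genes were lower and 4 to 5 higher.

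Deviations from group means correlated at -0.1215 to -0.0129 between siRNA and control libraries of the same replicate number. Between libraries of unlike number the correlations were -0.0749 to 0.139. These values cannot show whether libraries were paired by design. With the number as a block, Acaca had an adjusted p of 0.0501 and lost its call.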
